A study of Mus musculus with 50 samples.

Results

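The genes described here encode the subunits of the NMDA receptor, and they were taken by symbol from the gene annotation of the expression files. All 7 listed symbols were found, Grin1, Grin2a, Grin2b, Grin2c, Grin2d, Grin3a and Grin3b, of 55385 genes in all. Their levels were followed in spinal motor neurons of the mouse from the embryo to old age, and in motor neurons made from embryonic stem cells, in order to see which subunit genes changed, when, and whether neurons in a dish went through the same changes.

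NMDA receptors are glutamate-gated cation channels that need both glutamate and a co-agonist, glycine or D-serine, to open, and that are blocked by magnesium at rest. Each receptor is a tetramer that holds the obligatory GluN1 subunit (Grin1), which binds the co-agonist, with GluN2 subunits (Grin2a to Grin2d), which bind glutamate and set the kinetics and magnesium sensitivity, or with GluN3 subunits (Grin3a, Grin3b), which bind glycine. In the forebrain the textbook developmental change is from receptors rich in GluN2B to receptors that hold GluN2A, and GluN3A is known as a subunit of young neurons while GluN3B is known for its presence in motor neurons.

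RNA was measured in 28 libraries. In vivo there were 3 libraries at E10.5, 2 at E13.5, 3 at P4, 2 at P13, 3 at P21, 3 at P56 and 2 at 2 years. The E10.5 libraries held whole-cell RNA from sorted GFP-positive cells of HB9-GFP embryos on a C57BL/6 background. All later ages held nuclear RNA from Chat-Cre;SUN1-sfGFP-Myc animals on that background. In these animals Chat-Cre switches on a tagged nuclear membrane protein by which nuclei were captured. The nuclei thus come from cholinergic neurons, motor neurons foremost, and from any other cell in which the Cre was ever active. Each in vivo library of nuclei pools animals. In vitro, motor neurons were differentiated from 1 embryonic stem cell line of the same genotype, sampled at day 0 (DIV0, 2 libraries), and then grown on primary cortical astrocytes for 7 days (DIV7, 2) or 28 days (DIV28, 3). A last group of 3 libraries was grown for 28 days with tetrodotoxin (TTX, 1 uM), which blocks voltage-gated sodium channels and thereby action potentials. Chromatin accessibility (ATAC-seq) was measured in 2 libraries of every group, 22 in all.

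One library stood against its title. It is titled as the third replicate of DIV0, but the study's description gives DIV0 2 replicates and DIV28 3, and it was counted as the third replicate of DIV28. Every count of genes called in culture is given with it in DIV28, and its effect on the subunit genes is stated beside their results. The change from E10.5 to E13.5 coincides with a change from whole cells to nuclei and of reporter, so age and preparation cannot be told apart there. In the same way, culture and spinal cord differ in the source of cells and in preparation.

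Depth ran from 2704682 to 21823500 counts per library, so that 3 counts, taken as the floor, stood for 0.137 to 1.11 CPM. No 2 libraries of a group held the same values. Motor neuron markers, 6 of 6, were above 0 in every group, with a summed level of 1511 to 2832 normalised counts at E13.5, 3310 to 4010 at P4 and 5342 to 9265 at DIV28. Markers of other cells were present and changed with age. Vessel and blood markers (6 genes) summed to 19227 to 30412 at E13.5, 3887 to 5171 at P4 and 19.6 to 26.3 at P56. Oligodendrocyte markers (5 genes) summed to 1919 to 2489 at P4, 10568 to 10712 at P13 and 2069 to 3155 at P56, and astrocyte markers (6 genes) to 2768 to 3514 at P4 and 950.0 to 1519 at P56. Inhibitory interneuron markers (4 genes) summed to 318 to 537 at P4 and 641 to 814 at P56. Their part in the results below was not tested. In such bulk libraries, fewer cells of a type and less RNA per cell cannot be told apart.

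On mouse genome build mm10, with GENCODE annotation, the genes lie apart from each other on 7 chromosomes. Grin1 spans chr2:25291181-25319187 and Grin2a chr16:9567898-9995560. Grin2b spans chr6:135713233-136173511, Grin2c chr11:115249169-115267243 and Grin2d chr7:45831883-45878378. Grin3a spans chr4:49661611-49845744 and Grin3b chr10:79970715-79977190. Only Grin3b is on the plus strand. Several share ground with other genes. Grin1 holds the antisense gene Grin1os, at up to 5.29 normalised counts in any group mean. Kdelr1 overlaps Grin2d, Tmem259 overlaps Grin3b and Ppp3r2 lies inside Grin3a, so part of the reads counted for these members could belong to the neighbour or the reverse. The library kit keeps strand, but RSEM was run with its default settings, which do not use it, so reads of overlapping genes on opposite strands cannot be told apart.

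The promoters of the 2 subunit genes called higher from P4 to P56, Grin3b and Grin2c, are printed first, followed by those of Grin1 and Grin2d, which were not called over that span. They run from 250 bases before to 50 bases after the RefSeq start on GRCm38.p6, which shares its coordinates with mm10, and 4 of the 7 genes were matched. Capitals mark the letters GGGCGG (the GC box) or TATAAA on the printed strand.
Grin3b, chr10:79970474-79970773, plus strand: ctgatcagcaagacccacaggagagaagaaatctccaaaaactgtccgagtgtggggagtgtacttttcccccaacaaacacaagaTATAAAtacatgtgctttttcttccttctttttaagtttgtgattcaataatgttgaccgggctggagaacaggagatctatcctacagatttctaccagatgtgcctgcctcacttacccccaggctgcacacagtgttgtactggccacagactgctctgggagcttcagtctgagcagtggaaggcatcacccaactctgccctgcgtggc
Grin2c, chr11:115267194-115267493, minus strand: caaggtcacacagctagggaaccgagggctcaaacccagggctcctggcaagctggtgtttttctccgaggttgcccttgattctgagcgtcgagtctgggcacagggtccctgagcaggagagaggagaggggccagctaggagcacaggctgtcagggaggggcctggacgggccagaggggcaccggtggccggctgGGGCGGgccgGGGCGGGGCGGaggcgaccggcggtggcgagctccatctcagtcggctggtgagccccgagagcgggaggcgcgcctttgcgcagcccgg
Grin1, chr2:25319138-25319437, minus strand: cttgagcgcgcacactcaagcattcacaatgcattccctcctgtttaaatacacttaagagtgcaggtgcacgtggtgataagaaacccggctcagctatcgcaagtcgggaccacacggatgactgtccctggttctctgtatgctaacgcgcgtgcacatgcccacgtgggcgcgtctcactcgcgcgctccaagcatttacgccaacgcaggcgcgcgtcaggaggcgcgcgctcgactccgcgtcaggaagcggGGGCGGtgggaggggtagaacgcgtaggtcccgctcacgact
Grin2d, chr7:45866632-45866931, minus strand: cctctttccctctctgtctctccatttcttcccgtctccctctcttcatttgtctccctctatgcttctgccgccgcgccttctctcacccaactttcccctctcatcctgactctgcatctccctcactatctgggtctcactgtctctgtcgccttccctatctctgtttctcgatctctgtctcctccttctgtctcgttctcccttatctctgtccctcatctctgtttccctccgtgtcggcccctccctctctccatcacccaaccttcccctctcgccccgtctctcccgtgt
The 4 windows differ widely in base composition. Grin3b had 48.3% GC and 3 CpG dinucleotides, Grin2c 70.0% and 22, and Grin1 60.7% and 33, against a median GC of 52.7% over 32851 promoters of the same length. The motifs searched, on both strands, were the GC box GGGCGG, the E-box CACGTG, the core TGACG of a cAMP response element, and TATAAA, and no match of one overlapped a match of another. Grin3b held 1 TATAAA, which begins 164 bases before the start, a motif present in 13.6% of all promoters. Grin2c held 3 GC boxes, the last pair of which share a base, and Grin1 held 1, a motif in 35.7% of promoters. Grin1 also held 2 E-boxes (in 7.2% of promoters) and 2 TGACG (in 20.8%), and Grin2d, with 12 CpG, held none of the 4. These are matches of letters and not measured sites.

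The levels of all 7 genes by group are given below as normalised counts, which are the estimated counts of a library divided by its size factor. They compare one gene across libraries. They do not compare genes with each other, for which lengths are needed.

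Grin1, the obligatory subunit, was almost silent at E10.5 and highest in young adults. It was at 5.3, 4.8 and 22.1 normalised counts in the E10.5 libraries and at 225 and 121 at E13.5. At P4 it was at 1791, 1718 and 1783, at P13 at 1708 and 1692, and at P21 at 2864, 2261 and 2111. The P4 and P13 libraries sat close together, and the P21 libraries were all above them. At P56 the values were 2462, 2525 and 2071, and at 2 years 1666 and 1701. The mean order was P21, P56, P4, P13 and 2 years, of which P21 and P56 overlapped and P13 and 2 years overlapped, and every library from P4 on was above every embryonic one.

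**Figure D1:**
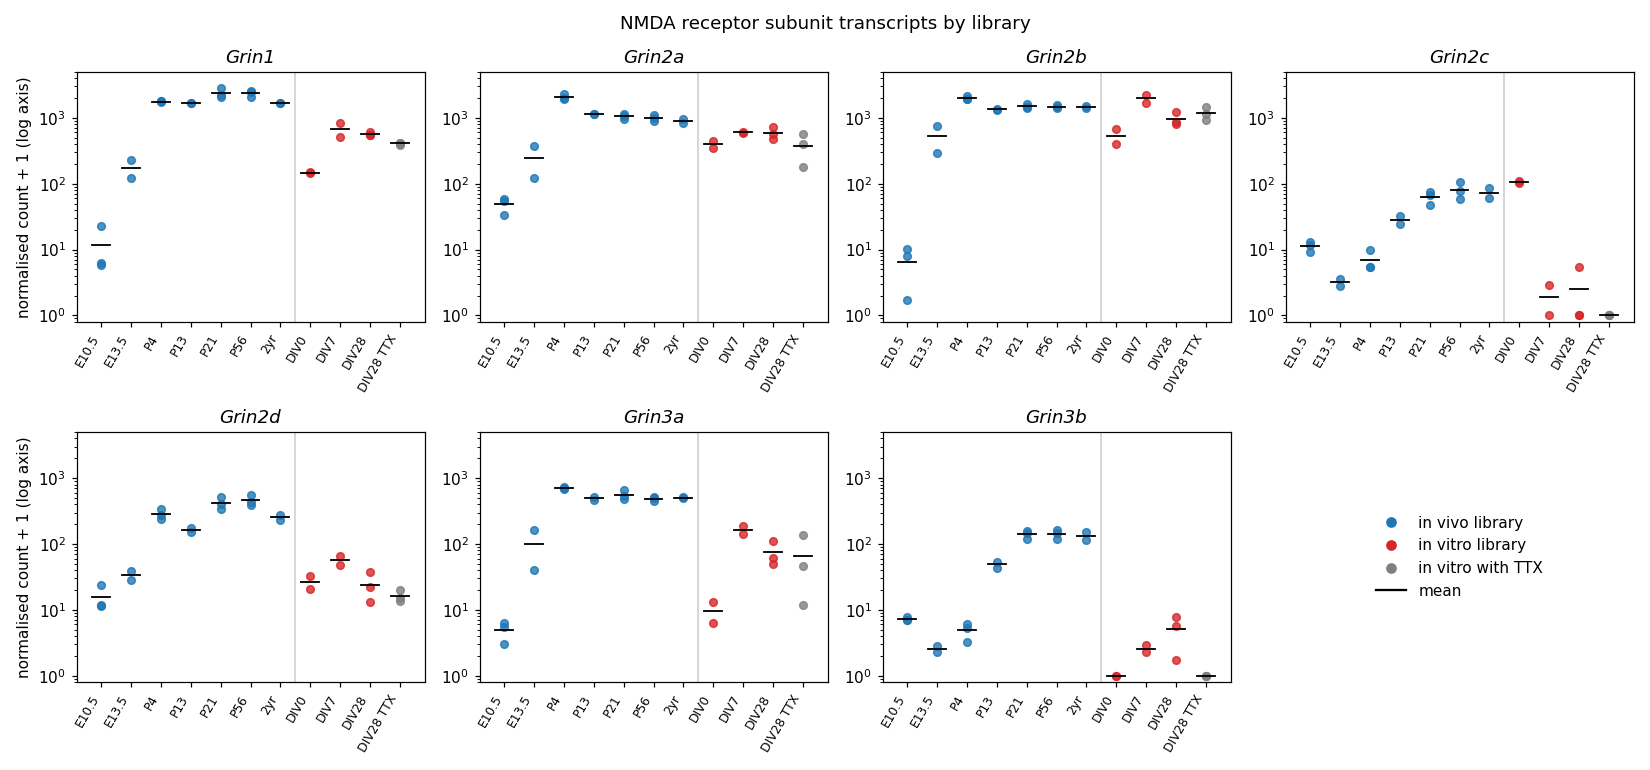
Normalised counts plus 1 (log axis) of each subunit gene by group. Each point is 1 RNA library (blue in vivo, red in culture, grey with TTX) and short lines are group means. Grin1, Grin2a, Grin2b and Grin3a are high from P4 on, whereas Grin3b stays at 6.9 or less through P4 and lies between 114 and 161 from P21 on.

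Grin2a and Grin2b, the main GluN2 subunits of the forebrain, both had their highest normalised counts in vivo at P4. Grin2a was at 58.0, 32.5 and 53.4 normalised counts at E10.5, at 368 and 123 at E13.5, and at 2022, 1927 and 2271 at P4. It was then lower, at 1127 and 1128 at P13, 955, 1072 and 1147 at P21, 896, 999.6 and 1094 at P56, and 823 and 969 at 2 years. All 3 P4 libraries of Grin2a stood apart from and above all later ones. Grin2b was at 9.2, 0.7 and 6.9 at E10.5, at 764 and 289.6 at E13.5 and at 1969, 2138 and 1916 at P4. It then lay between 1331 and 1614 in all 10 libraries from P13 to 2 years, below the P4 libraries. Per kilobase of effective transcript, a length estimated for each library, Grin2b was not highest at P4. Its group means on that scale were 338 at P4, 202 at P13, 336 at P21, 321 at P56 and 341 at 2 years. Grin2a stayed highest at P4 on it, at 191 against 106 to 116 from P13 on. The 2 E13.5 libraries differed by over 2-fold for both genes, the first being the higher, and the same library was the higher for Grin1 and Grin3a. Motor neuron markers summed to 2832 in the first and 1511 in the second library. Vessel and blood markers summed to 19227 and 30412, and progenitor and cycling markers to 3837 and 7314. The part of these differences in the gap was not tested.

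Grin2c and Grin2d, which encode GluN2 subunits of weak magnesium block, were low in the embryo. Grin2c stood at 10.7, 8.3 and 12.2 normalised counts at E10.5, at 1.8 and 2.6 at E13.5 and at 4.5, 4.4 and 8.7 at P4. It reached 23.2 and 31.6 at P13, 65.7, 46.4 and 74.6 at P21, 58.1 to 106 at P56 and 59.2 and 85.3 at 2 years. Each library from P13 on was above each earlier one, and those from P21 on overlapped one another. Counts behind the low values were few, 2 and 6 at E13.5 and 4, 4 and 7 at P4. Grin2d was at 10.7, 10.4 and 22.9 at E10.5, 37.9 and 27.5 at E13.5 and 343, 277 and 236 at P4. It was at 177 and 151 at P13, then at 508, 404 and 338 at P21, 550.0, 438 and 391 at P56 and 234 and 278 at 2 years. The P13 libraries thus sat below those on either side, and the 2-year libraries below all P21 and P56 ones.

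Grin3a and Grin3b, the glycine-binding GluN3 subunits, reached their later levels at different ages. Grin3a was at 4.6, 2.1 and 5.3 normalised counts at E10.5, at 160 and 39.9 at E13.5 and at 719, 731 and 694 at P4, its highest group. It was then between 444 and 661 in all 10 later libraries, below every P4 library. Grin3b was at 6.1, 6.9 and 6.1 at E10.5, at 1.8 and 1.3 at E13.5 and at 2.2, 4.4 and 5.0 at P4, from 2 to 10 counts a library. At P13 it was at 53.0 and 42.7, at P21 at 144, 155 and 117, at P56 at 161, 146 and 116, and at 2 years at 114 and 149. Grin3b was thus near the floor until P4, intermediate at P13 and alike in the 8 libraries from P21 on, with no overlap between these 3 ranges. Tmem259, which overlaps Grin3b on the other strand, had group means of 170 at P4 and 183 at P56, and Wdr18, within 2000 bases, 106 and 159.

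Which steps carried these changes was tested between consecutive ages in a single fit of all 18 in vivo libraries. A gene was called where its quasi-likelihood p in edgeR was under 0.001 and its fold change at least 2, and the share of all tested genes that met both limits is given beside each count. All 7 genes passed the filter on low counts, Grin2c and Grin3b through the ages at which they were high, so their calls are not independent of that filter. From E10.5 to E13.5, 6 of the 7 genes were called, 4 higher and 2 lower, while 44.1% of all 15030 tested genes were called. The median log2 fold change of the 7 was 2.17, against 0.13 for all genes. Grin2b had the largest change, with a log2 fold change of 6.40 ± 0.42 (SE, adjusted p = 8.1e-10), followed by Grin3a at 4.40 ± 0.50 and Grin1 at 3.83 ± 0.38. The 2 genes that fell, Grin2c at -2.25 ± 0.52 and Grin3b at -2.17 ± 0.49, did so between levels of 12.2 normalised counts and less. Grin2c lost its call with any 1 of 4 libraries left out and Grin3b in 4 such fits and with DESeq2. As stated above, this step also joins cells to nuclei.

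From E13.5 to P4, 5 genes rose and none fell, with 42.7% of all genes called. Grin1 rose by 3.52 ± 0.34 on the log2 scale (adjusted p = 1.3e-07), Grin2d by 3.31 ± 0.30, Grin2a by 3.25 ± 0.34, Grin3a by 3.06 ± 0.37 and Grin2b by 2.09 ± 0.33. The median of the 7 was 3.06, against 0.12 over all genes. Grin2c (1.41 ± 0.60, adjusted p = 0.045) and Grin3b (1.45 ± 0.59, adjusted p = 0.061) were not called. These 5 calls held with each library left out in turn. Markers of other cells moved over the same step. Vessel and blood markers fell, 5 of 6 of them, and all 5 oligodendrocyte markers rose. Progenitor and cycling markers (5 genes) summed to 3837 to 7314 at E13.5 and 800 to 947 at P4. Motor neuron markers (6 genes) summed to 1511 to 2832 and 3310 to 4010 at the same ages. The part of either list in the 5 rises was not tested. Inhibitory interneuron markers summed to 66.9 to 98.8 at E13.5 and 318 to 537 at P4, with 3 of 4 called higher, excitatory interneuron markers (3 genes) to 63.1 to 103 and 258 to 378, and astrocyte markers to 964 to 1148 and 2768 to 3514, with 3 of 6 called higher and 1 lower.

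From P4 to P13 the 2 called genes were Grin3b and Grin2c, both higher, where 13.3% of all genes were called. Grin3b rose by 3.71 ± 0.34 on the log2 scale (adjusted p = 7.4e-07) and Grin2c by 2.29 ± 0.43 (adjusted p = 0.00056). Grin2a (-0.79 ± 0.30), Grin2d (-0.70 ± 0.26), Grin2b and Grin3a had negative values and were not called. From P13 to P21 another 2 genes were called, at 7.30% of all genes. Grin3b rose further, by 1.43 ± 0.24 (adjusted p = 0.00037), and Grin2d by 1.25 ± 0.26 (adjusted p = 0.0024). The Grin2d call was lost without either P13 library or without the first P21 library. Over all genes 20.6% of the calls at this step were higher, and 31.0% with median-of-ratios scaling.

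After P21 no member was called. From P21 to P56 edgeR called 0 of 7 genes, none with an unadjusted p under 0.05, and DESeq2 called 0, where 0.173% of all genes were called. From P56 to 2 years edgeR and DESeq2 again called 0, where 0.685% of all genes were called, and 1 gene had an unadjusted p under 0.05. That gene was Grin2d, with a log2 fold change of -0.76 ± 0.25 and an adjusted p of 0.22.

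The span from P4 to P56 was tested directly, as the postnatal part of maturation. Grin3b rose 35.7-fold (log2 5.16 ± 0.31, adjusted p = 1.4e-09) and Grin2c by 3.77 ± 0.38 on the log2 scale (adjusted p = 6.2e-07). Grin2a fell by 1.06 on the log2 scale (SE 0.26, adjusted p = 0.0037), close to both limits. Its value lay between -1.13 and -0.99 with each of the 6 libraries left out, and it was not called in any of those fits. The other genes were not called, with log2 values of 0.68 ± 0.22 for Grin2d (adjusted p = 0.021), 0.41 ± 0.26 for Grin1, -0.45 ± 0.27 for Grin2b and -0.56 ± 0.29 for Grin3a. In all, 3 of 7 genes were called over this span, 2 higher and 1 lower, beside 17.8% of all genes. None of the 6 motor neuron markers was called over it, while 5 of 6 astrocyte markers and 5 of 6 vessel and blood markers fell and 1 of 4 inhibitory interneuron markers rose.

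A change of subunits is a matter of ratios, and these were computed within each library as the log2 of normalised counts with 1 added. The 5 early libraries of nuclei, E13.5 and P4, were set against the 8 mature ones, P21, P56 and 2 years, with a two-sided exact permutation test adjusted over 4 ratios. Grin2a over Grin2b was not shown to differ. It was -0.43 ± 0.67 (SD, n = 5) early and -0.57 ± 0.14 (n = 8) in mature nuclei, a difference of -0.14 (exact p = 0.55). By age the ratio was -1.14 at E13.5, 0.04 at P4, -0.25 at P13, -0.50 at P21, -0.56 at P56 and -0.70 at 2 years. It therefore was lowest at E13.5 and highest at P4 among nuclei. With P4 alone as the early group the difference was -0.62 (exact adjusted p = 0.012), that is, less Grin2a relative to Grin2b in mature nuclei.

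The other 3 ratios differed between early and mature nuclei. Grin3b over Grin3a rose from -6.34 ± 1.41 to -1.90 ± 0.25, a difference of 4.44 (exact adjusted p = 0.0031), and the 2 ranges were apart. Grin2c over Grin2d rose from -4.61 ± 1.26 to -2.43 ± 0.52, a difference of 2.18 (exact adjusted p = 0.0041), with ranges that overlapped slightly. The summed Grin2 genes over Grin1 fell from 1.63 ± 0.48 to 0.43 ± 0.23 (exact adjusted p = 0.0031), again with ranges apart.

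Per length, in counts per kilobase of effective transcript, Grin2b was the leading Grin2 gene of nuclei at every age. It made up 63.0% of the Grin2 sum at E13.5, 57.2% at P4, 62.2% at P21 and 65.7% at 2 years. Grin2a made up 25.7%, 32.7%, 19.9% and 20.9% at the same ages. Grin2d, at 10.4% at E13.5 and 9.9% at P4, was at 16.3% at P56, and Grin2c at 0.243% at P4 and 3.59% at P56. E10.5 differed, with Grin2a at 55.1% and Grin2b at 2.12%, at levels near the floor for Grin2b. Among the Grin3 genes, Grin3b was 1.38% ± 0.501 of the per-length sum at P4, 16.4% at P13 and 38.8% ± 6.87 at P56 (SD, n = 3 at P4 and P56). The effective lengths are estimates that differ between libraries. With 1 fixed length per gene, Grin2a was at 39.9% and Grin2b at 49.7% at P4, and 25.5% and 48.3% at P56, and the order of the Grin2 genes in nuclei at these ages stayed.

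**Figure D2:**
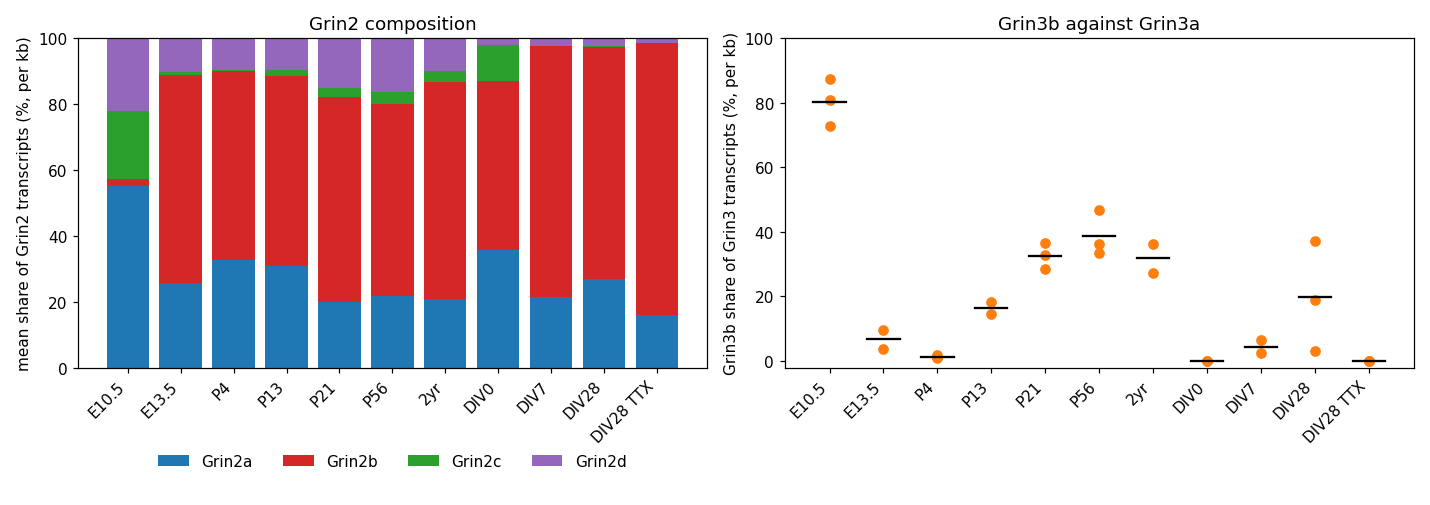
Left, shares of the Grin2 sum per kilobase (percent, stacked group means), and right, the Grin3b share of the Grin3 sum per kilobase (percent, 1 point per library, lines at group means). Grin2b takes 51.2% or more in every group after E10.5, and the Grin3b share goes from 1.38% at P4 to 38.8% at P56 and is 0 at DIV0 and with TTX.

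In culture, the question was whether motor neurons in a dish change the same genes. Grin1 was at 152 and 142 normalised counts at DIV0, 506 and 834 at DIV7 and 554, 552 and 610 at DIV28. Grin2b was at 395 and 683 at DIV0, 1705 and 2263 at DIV7 and 854, 796 and 1216 at DIV28. DIV7 libraries were above all other culture libraries for Grin2b, and DIV7 and DIV28 overlapped for Grin1. Grin2a was at 439 and 354 at DIV0, 587 and 617 at DIV7 and 484, 563 and 714 at DIV28. Grin3a was at 5.2 and 12.2 at DIV0, 141 and 186 at DIV7 and 60.2, 48.8 and 112 at DIV28. In normalised counts both were above DIV0 in every later library without TTX, Grin3a starting near the floor. Per kilobase of effective transcript the order of Grin2a was the reverse between DIV0 and DIV28. On that scale it was at 73.6 and 90.3 at DIV0 and at 41.9, 46.3 and 58.2 at DIV28.

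Grin2c had the opposite course in culture. It was at 107 and 101 normalised counts at DIV0, from 82 and 66 counts, close to the highest library of adult nuclei, at 106. It was at 1.9 and 0 at DIV7 and at 0, 4.5 and 0 at DIV28, where its 14 counts all came from the second library. Fdxr, the neighbouring gene on the same strand, was at 37.7 at DIV0 and 22.3 at DIV7. Markers of progenitors and cycling cells (5 genes) summed to 1824 to 2199 at DIV0 and 48.8 to 94.4 at DIV7, and at E13.5, where Grin2c was at 2.21, to 3837 to 7314. Grin2d stayed low, between 12.3 and 63.8 in the 7 culture libraries without TTX. Grin3b was at 0 in both DIV0 libraries, from 1 count each at DIV7, and at 4.6, 6.8 and 0.7 at DIV28, from 4, 21 and 1 counts.

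Of the 7 genes 6 passed the filter on low counts in the fit of the 10 culture libraries, and Grin3b did not. Grin2c passed only through DIV0, where it was high, so its values from DIV0 on are not independent of the filter. Grin2d passed only through DIV7, its highest culture group, so its values to and from DIV7 are not independent of it either. From DIV0 to DIV7, 2 of these 6 genes were called, both higher, beside 11.2% of 12890 tested genes. Grin1 rose 4.59-fold (SE 0.28 on the log2 scale, adjusted p = 0.00024) and Grin2b by 1.89 ± 0.35 on the log2 scale (adjusted p = 0.0026). Grin3a (4.25 ± 1.01, adjusted p = 0.01) and Grin2c (-6.87 ± 1.49, adjusted p = 0.009) missed the limit on p by little. From DIV7 to DIV28 edgeR and DESeq2 called 0 of 6, beside 7.70% of all genes, and 2 genes had an unadjusted p under 0.05. These were Grin2b at -1.04 ± 0.30 (adjusted p = 0.036) and Grin2d. From DIV0 to DIV28, 2 genes were called beside 19.0% of all genes, Grin1 higher by 1.99 ± 0.26 (adjusted p = 0.00014) and Grin2c lower, at -5.53 ± 1.00 (adjusted p = 0.0018). The pooled Grin3b level at DIV28 was 2.31 times the DIV0 floor of 3 counts over the group. It was 1.06 times that floor without the second DIV28 library, which held 21 of the 26 counts. Without the library titled DIV0, these counts of called genes were unchanged at 0 for DIV7 to DIV28 and 2 for DIV0 to DIV28. With it placed in DIV0 as its title has it, no member was called from DIV0 to DIV7 or from DIV0 to DIV28, and Grin1 had a log2 value of 0.87 from DIV0 to DIV28.

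DIV0 and E13.5, the closest embryonic age, were then compared in a fit of 25 libraries. In this fit Grin3b passed the filter on low counts only through the in vivo ages from P13 on. Grin2c passed only through DIV0 and the in vivo ages from P21 on. Their calls here and in the comparisons of tissue and culture that follow are thus not independent of that filter. Of the 7 genes 2 were called, beside 39.4% of 15521 genes. Grin2c was higher at DIV0 by 5.40 ± 0.68 on the log2 scale (adjusted p = 6.4e-07) and Grin3a lower, at -3.50 ± 0.59 (adjusted p = 3e-05). Grin2b (0.02) and Grin1 (-0.24) lay near 0. Grin2a was not called at 0.69, and was at 1.76 and called without the first E13.5 library. With the library titled DIV0 placed in DIV0, 1 gene was called.

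P21 nuclei and DIV28 cultures, the mature stages of either series, differed in 5 of 7 genes, all lower in culture, beside 26.3% of all genes. Grin3b was lower by a log2 value of -4.85 ± 0.37 (adjusted p = 1.9e-09), Grin2c by -4.62 ± 0.55, Grin2d by -4.25 ± 0.32, Grin3a by -2.88 ± 0.34 and Grin1 by -2.02 ± 0.27. Grin3b and Grin2c entered this fit through groups in which they were high, P21 among them, so their calls are not independent of the filter. Grin2a (-0.80 ± 0.25, adjusted p = 0.011) and Grin2b (-0.60 ± 0.29, adjusted p = 0.088) were not called. The same 5 were called without any 1 of the 6 libraries, and 3 with the library titled DIV0 placed there. Per length, Grin2b was 70.4% ± 7.90 and Grin2d 2.46% ± 1.47 of the Grin2 sum at DIV28 (SD, n = 3), where P21 nuclei had 62.2% and 15.4%.

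Whether the change over time itself differed was tested as an interaction, the change from DIV0 to DIV28 minus the change from E13.5 to P21. It was called in 3 of 7 genes, all with a lower value in culture, beside 41.7% of all genes. The value was -10.02 ± 0.88 for Grin2c (adjusted p = 4.3e-09), which rose in vivo and fell in culture. For Grin2d it was -3.90 ± 0.56 (adjusted p = 3.5e-06) and for Grin1 -1.78 ± 0.44 (adjusted p = 0.0013). Grin1 lost its call in 7 of 10 fits with 1 library left out, and with the library titled DIV0 placed in DIV0. For Grin2a it was -1.49 (adjusted p = 0.0029), just short of the limit on p. Grin2a was called with median-of-ratios scaling, with DESeq2 and with the library titled DIV0 placed in DIV0. For Grin2b (-0.62) and Grin3a (0.62) it was not called. Grin3b, at 0 in DIV0, had a value of -0.99 ± 2.31 (adjusted p = 0.75) and was not called. At P21 the pooled Grin3b level was 65.6 times the DIV0 floor, which compares levels and is no test of a difference in change.

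Action potentials were blocked with TTX to ask which changes depend on activity. Immediate early genes (7 genes), read as a check of activity, summed to 243 to 352 normalised counts at DIV28 and 112 to 134 with TTX, although none of the 5 that were tested was called. Grin1 was at 554, 552 and 610 without and 416, 392 and 417 with TTX, with the ranges apart. Grin2a was at 484, 563 and 714 without and 394, 182 and 563 with TTX, lower in all 3 pairs of same-numbered cultures. Grin2b was at 854, 796 and 1216 without and 1126, 930 and 1463 with TTX, higher in all 3 pairs. Grin3a was at 60.2, 48.8 and 112 without and 45.1, 10.9 and 136 with TTX, with wide overlap.

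By edgeR 0 of 6 genes were called with TTX, 2 of them, Grin1 and Grin2c, had an unadjusted p under 0.05, and DESeq2 called 0, while 0.683% of all genes were called. Grin1 had a log2 fold change of -0.51 ± 0.21 (adjusted p = 0.56), Grin2a -0.66 ± 0.33 (adjusted p = 0.7) and Grin2b 0.27 ± 0.28 (adjusted p = 0.93). The cultures were grown in parallel and their numbers pair them. With the replicate block the values were -0.51 for Grin1 (adjusted p = 0.26) and -0.76 for Grin2a (adjusted p = 0.2), the number of members called was again 0, and calls over all genes went from 88 to 172. With the library titled DIV0 moved there, leaving 2 DIV28 libraries, 0 members and 12 genes in all were called. In a fit of only these 6 libraries with the block, chosen after seeing the data, Grin1 was at -0.49 (adjusted p = 0.013) and Grin2a at -0.77 (adjusted p = 0.028), both under 2-fold. Astrocyte markers were high in the third culture of each arm, 717 and 699 against 220 to 277 in the others.

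**Figure D3:**
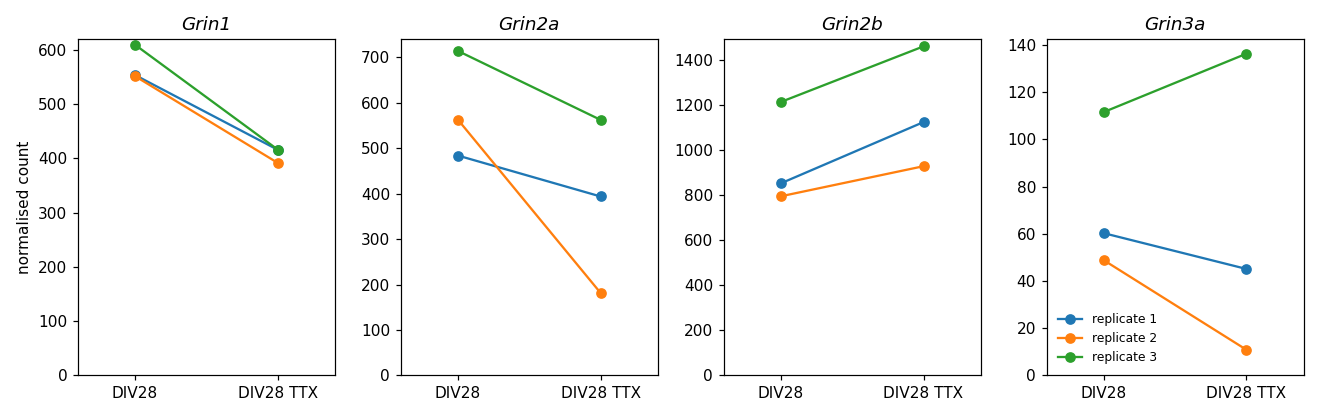
Normalised counts of Grin1, Grin2a, Grin2b and Grin3a in DIV28 cultures without and with TTX. Each line joins the 2 libraries that share a replicate number. Grin1 and Grin2a go down in all 3 pairs, Grin2b goes up in all 3, and Grin3a goes down in 2 of 3.

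The 2 low genes reached 0 in all TTX libraries. Grin3b had 26 counts over the DIV28 group and 0 with TTX. The pooled DIV28 level was 5.55 times the TTX floor of 3 counts over the group, with no allowance for error at DIV28. Of these 26 counts 21 came from the second DIV28 library, and without it the level was 2.54 times the floor. Grin2c had 14 counts at DIV28, all in the second library, and 0 with TTX. Its pooled DIV28 level was 2.99 times the floor, and without that library Grin2c was at 0 in both arms. In edgeR Grin2c had an adjusted p of 0.63 and was not called. In normalised counts the log2 ratio of Grin2a over Grin2b was -0.69 ± 0.17 at DIV28 and -1.75 ± 0.53 with TTX (SD, n = 3 each). This was a difference of -1.05 with ranges apart and a two-sided exact permutation p of 0.1, the smallest that 3 against 3 allows. With the effective length of each library the ranges were not apart. The Grin2a share of the Grin2 sum per kilobase was 25.4%, 34.9% and 20.4% at DIV28 and 25.3%, 11.2% and 11.3% with TTX. The summed Grin2 genes over Grin1 differed by 0.46 (exact p = 0.2), with overlapping ranges. The first ratio was lower and the second higher with TTX in all 3 pairs, for which an exact sign-flip test of the pairs gives p = 0.25, the smallest it can give.

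Accessible chromatin at the start sites was described from the ATAC-seq peaks of the 22 libraries, which have 2 libraries per group and were not tested. A peak lay within 1000 bases of an annotated start of Grin1, Grin2a, Grin2b, Grin2d and Grin3a in 22 of 22 libraries, including those in which the gene was near the floor of expression. Grin3b had one in 21, the exception being a TTX library, and Grin2c in 19, the exceptions being both DIV7 libraries and 1 DIV28 library. In all, 150 of 154 pairs of gene and library held a peak. A gene counted where any of its annotated starts, 9 for Grin1, had a peak. Among the 50000 strongest peaks of each library it was 128 of 154, with Grin2c in 7 and Grin3b in 13 of 22 libraries. The share over all genes was not computed, so these counts cannot show whether the subunit genes differ from other genes. The median fold enrichment was highest at Grin1 (8.34) and Grin3a (8.21) and lowest at Grin2c (3.29).

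The place of the best peak in the list of its library, with 1 for the strongest, was compared by age. A longer list adds weak peaks behind a peak and does not move this place, but whether depth changed the order of the peaks was not tested. For Grin3b it was 49710 and 51666 at E13.5 and 32898 and 35073 at P4, then 20372 and 18707 at P13, 15226 and 15396 at P21, 20175 and 19052 at P56 and 12013 and 17259 at 2 years. All 8 libraries from P13 on were thus nearer to the top than the 6 earlier ones. The fold enrichment of the same peaks gave another picture, with 9.48 and 6.4 at E13.5, 4.06 and 3.5 at P4 and 4.24 to 6.81 from P13 on, so that E13.5 was not below the later ages. In culture Grin3b stood at 52390 and 49658 at DIV0 and at 82296 and 75832 at DIV28. Grin2c stood at 66777 and 53208 at P4 and 28545 and 31271 at P13 but 100081 and 39412 at P56, and at 42313 and 46730 at DIV0, where its RNA was highest. Grin1 stood between 5207 and 10354 in every in vivo library from E13.5 on, and at 17170 and 24783 at E10.5.

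**Figure D4:**
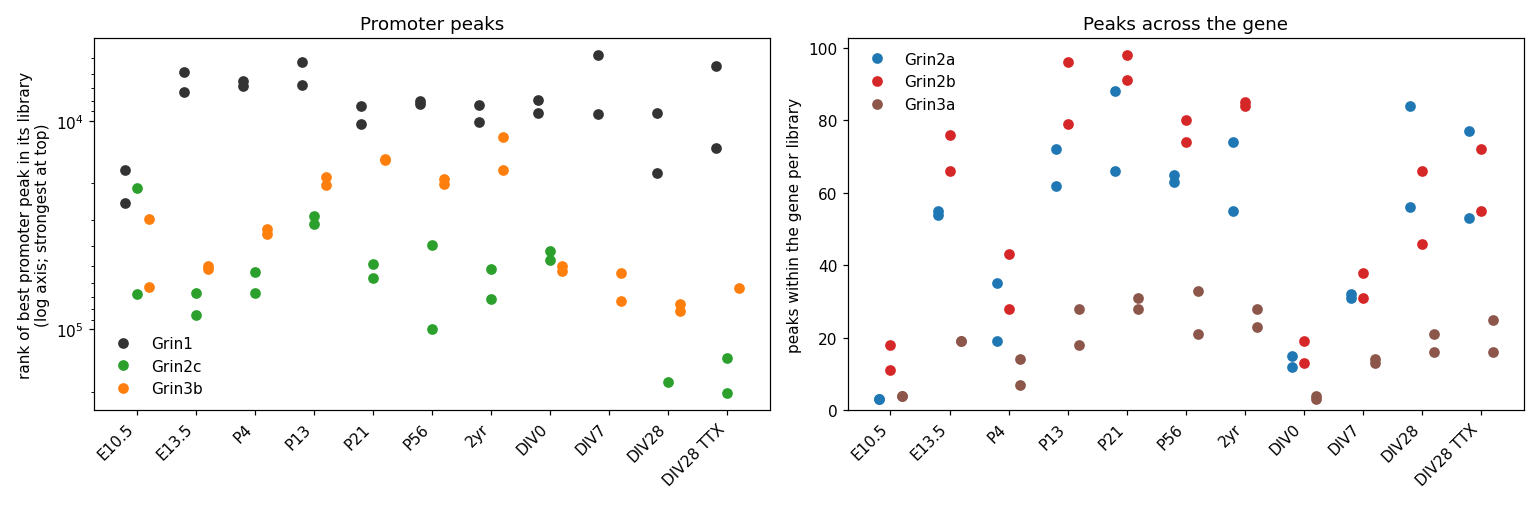
Left, place of the best peak within 1000 bases of a start site of Grin1, Grin2c and Grin3b in the peak list of its library (log axis, strongest at the top), and right, number of peaks within Grin2a, Grin2b and Grin3a, by group (1 point per library). On the left Grin3b lies between 12013 and 20372 from P13 on in vivo and at 29681 or further down before, and on the right the counts are raw and move with the number of peaks in the library.

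Within the long gene bodies the number of peaks changed more than at the starts. Grin2a held 3 and 3 peaks at E10.5, 54 to 55 at E13.5, 19 to 35 at P4, 62 to 72 at P13 and 66 to 88 at P21. Grin2b held 11 to 18, 66 to 76, 28 to 43, 79 to 96 and 91 to 98 at the same ages, and Grin3a 4, 19, 7 to 14, 18 to 28 and 28 to 31. The lists differ in length, from 80386 to 224328 peaks, and per 100000 peaks P4 was lower than E13.5 without overlap for Grin2b alone of the 3 (29.1 to 37.2 against 42.2 to 42.3). On that scale Grin2a was at 19.8 to 30.3 at P4 and 30.0 to 35.1 at E13.5, and Grin3a at 7.28 to 12.1 and 10.6 to 12.1. All 3 genes were lower at P4 than at P13 on both scales. In culture Grin2a held 12 to 15 peaks at DIV0 and 56 to 84 at DIV28, and Grin2b 13 to 19 and 46 to 66. Per 100000 peaks these were 12.7 to 18.6 and 36.7 to 37.4 for Grin2a, and 16.1 to 20.1 and 29.4 to 30.1 for Grin2b.

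The receptor works with a postsynaptic machinery, for which a list of 31 genes was taken: supply and clearance of the agonists, scaffold and anchoring proteins, and kinases and other effectors. From E13.5 to P4, 15 of the 29 tested rose and none fell, where 42.7% of all genes were called, with a median log2 fold change of 2.03, against 0.12 over all genes. The largest changes were those of Rasgrf1 (7.30 ± 0.28), a calcium-responsive exchange factor that binds GluN2B, Slc7a10 (5.75 ± 0.76), a transporter of D-serine and glycine, and Nos1 (4.65 ± 0.44), the neuronal nitric oxide synthase. From P4 to P56, 4 rose and 3 fell of 29, where 17.8% of all genes were called, with a median of -0.25, against -0.04 over all genes. The glycine transporter Slc6a5 (1.47 ± 0.30), the scaffold Dlg4, which encodes PSD-95 (1.28 ± 0.19), and Nos1 (1.22 ± 0.29) were the largest that rose. The glial glutamate transporter Slc1a3 (-3.66 ± 0.33), the kinase Dapk1 (-1.35 ± 0.17) and the kinase Fyn (-1.18 ± 0.16) were those that fell. Slc6a5 and Slc1a3 are also markers of inhibitory interneurons and astrocytes, whose sums are given above.

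In the other in vivo steps the list, with 29 tested, had 9 higher and 6 lower from E10.5 to E13.5, where 44.1% of all genes were called. It had 1 and 4 from P4 to P13 (13.3% of all genes), and 0 and 1 from P13 to P21 (7.30%). In the last pair of steps, up to P56 and then up to 2 years, edgeR called 0 of 29, with 3 and 7 at an unadjusted p under 0.05. Of all genes 0.173% and 0.685% were called at these steps. In culture, with 27 tested, the list gave 8 higher and 3 lower from DIV0 to DIV7 (11.2% of all genes were called), and 1 and 4 from DIV7 to DIV28 (7.70%).

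In culture the same list gave 7 higher and 4 lower of 27 tested from DIV0 to DIV28, where 19.0% of all genes were called, with a median of 0.22, against 0.06 over all genes. Among the called genes, Rasgrf2 (5.99 ± 0.40), the auxiliary subunit Neto1 (5.23 ± 0.55) and the glutamate transporter Slc1a1 (4.41 ± 0.37) had the largest increases. The scaffolds Dlg1 (-1.84 ± 0.28) and Dlg3 (-1.39 ± 0.22) and the receptor Ephb2 (-1.41 ± 0.28) had the largest called decreases. With TTX 1 gene of the list was called, Neto1, at 1.56 ± 0.33 (adjusted p = 0.091), from a mean of 238 ± 86.6 to 710.0 ± 308 normalised counts (SD, n = 3 each). Between P21 and DIV28, 3 of 30 were higher and 11 lower in culture (26.3% of all genes were called), and at DIV0 6 were higher and 6 lower than at E13.5 (39.4%). The interaction gave 6 higher and 10 lower values in culture (41.7%).

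The genes most like each subunit in pattern were sought by Pearson correlation of log2 levels over the 25 libraries without TTX, among 15514 genes, which describes shared ups and downs over the same libraries. Nearest to Grin1 were Cntnap2, Ntrk2 and Dock3 (r = 0.986 for the first), to Grin2a Adcy8 (0.980), Gm45130 and Anks1b, and among those nearest to Grin2b were Nav3 (0.985) and Cadm2. Nearest to Grin3a were Gabra5 (0.986), Cntnap5a and Gm44644, to Grin3b Gm12576 (0.940), Osbpl7 and Gm8104, and to Grin2d 9530026P05Rik (0.964), Pstpip2 and Otof. Grin2c had the weakest neighbours, Zfp410 (0.876), Cdc7 and Whrn. Among the subunits themselves, Grin1 and Grin2a had r = 0.95 and Grin2a and Grin2b 0.93, whereas Grin2c and Grin2b had 0.07 and Grin2c and Grin3b 0.63.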

How the data were processed

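The authors trimmed reads with Trim Galore and cutadapt (0.6.2) and estimated gene counts with RSEM 1.3.0 on STAR 2.5.2b alignments to mm10, and the deposited expected counts per gene are the unit used for RNA. They are estimates, of which 4.6% were not whole, and were rounded. The deposited effective lengths, which RSEM estimates per library, were used for shares per kilobase only. For ATAC-seq the authors aligned with BWA 0.7.1.7 and SAMtools 1.7.2 and called peaks per library with MACS2 2.2.7.1. The deposited peak lists give fold enrichment (a ratio) and −log10 p and −log10 q values as the caller wrote them, and peaks were ranked by −log10 p. RSEM was run with default settings, which ignore strand.

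Library sizes ran from 2704682 to 21823500 counts. The quasi-likelihood test of edgeR 4.0.16 (R 4.3.3) was run with TMM scaling in 3 fits, on the 18 in vivo libraries, the 10 culture libraries and the 25 libraries without TTX, after genes were kept that reached 5 CPM in all replicates of some group. A gene was called at p under 0.001 and 2-fold, as the study's methods set it, and Benjamini-Hochberg adjusted p-values are over all genes tested. Standard errors are the log2 fold change over the root of F. Nothing says that the libraries of a group came from separate litters, so p-values measure the spread between these libraries. Floors of 3 counts allow for counting error in the group at 0 and nothing else. The counts of the higher group were pooled over its libraries and taken as they stand, so folds against a floor are descriptions and no tests. Ratios used Python 3.11.15 and scipy 1.17.1. DESeq2 1.42.0, median-of-ratios scaling, no filter, the adjusted p, the replicate block and leaving out each library were the alternatives. The number of sample columns not used was 0. In simulated counts, 46.4% of genes changed 2-fold and 97.9% of those changed 4-fold were called from P4 to P56 (13561 genes). The rates were 15.5% and 84.7% from DIV0 to DIV28 (11621 genes), and 17% and 82.3% with TTX (11583 genes). Changes were simulated only in genes above a lower limit on the mean count, so these rates do not cover genes near the floor.

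Named genes were the 7 members, the 3 list genes with the largest called change each way in 4 comparisons, and the 3 most correlated genes of each member, of which 1 is not reported here. Members and lists were chosen with earlier results of these data known. Same-numbered DIV28 and TTX cultures deviated together (correlations of 0.56 to 0.74, and -0.44 to -0.22 for different numbers), and the study's supplement says that they were grown in parallel, so the numbers pair them. In vivo, same-numbered libraries had correlations of -0.13 to 0.13 and share only a number. RefSeq promoter sequences (GRCm38.p6) were matched for 4 of 7 members by symbol.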

Additional observations from a re-analysis of the deposited data

Results flagged for a closer look

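Grin1, Grin2c and Grin2d changed differently in culture than in vivo by a test of the difference itself, the interaction of the change from DIV0 to DIV28 against that from E13.5 to P21. The values were -1.78 for Grin1, -10.02 for Grin2c and -3.90 for Grin2d on the log2 scale. The Grin1 call was lost in 7 of 10 fits that left out 1 library. Of all tested genes, 41.7% were called in the same test. Grin2c was at 107 and 101 normalised counts in the DIV0 libraries and at 1.8 and 2.6 at E13.5, so its value carries the difference at the start as well as at the end of either series. Grin2c passed the filter on low counts only through DIV0 and the in vivo ages from P21 on. Both DIV0 and P21 enter this contrast, so its call is not independent of that filter. Culture and nuclei also differ in preparation, and the share of this in the 3 values was not tested. No group had the 4 libraries needed to look for a single library far from the rest.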

How the results depend on the processing

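Of 258 alternative values of the counts, ratios and peak totals, 236 were rated as the same, but small moves in a count passed this rating. It took in the 2 members called from P4 to P56 without any 1 library, in place of 3. It also took in the 4 to 5 called from E10.5 to E13.5 without 1 library, in place of 6. Of 1057 alternative values of single genes, 993 kept their side of the limits, and 0 called values changed sign. Of the 675 values below the limits in both fits, 40 had the other sign. With a limit on the adjusted p, without the filter on low counts, or with the replicate block, 4 members were called from DIV0 to DIV7 and 1 from DIV7 to DIV28. The block also joins DIV0 and DIV7 libraries to the others by number, a pairing that was not checked. Under it, calls over all genes from DIV0 to DIV7 went from 1440 to 2065. With a fit of the compared ages alone, 3 were called from E10.5 to E13.5 and 1 from P4 to P13. With the library titled DIV0 placed in that group, 0 were called from DIV0 to DIV7 and 0 from DIV0 to DIV28, 1 from E13.5 to DIV0 and 3 from P21 to DIV28. Leaving out 1 library gave 4 to 5 members called from E10.5 to E13.5, 1 to 2 from P13 to P21 (1 without either P13 library or the first P21 library), 1 to 2 from DIV0 to DIV7 (1 without DIV0 replicate 1 or DIV7 replicate 2), 1 to 2 from DIV0 to DIV28 (1 without either DIV0 library), 2 to 3 from E13.5 to DIV0, 2 from P4 to P56 and 2 to 4 in the interaction. The early-to-mature difference in Grin2a over Grin2b was -0.62 without E13.5 and between -0.34 and 0.02 without 1 library, 0.02 being that without P4 replicate 3. With a pseudocount of 0.1 the TTX difference in Grin3b over Grin3a was -4.15, a value set by the pseudocount since Grin3b was at 0 with TTX. The cause of the other changes was not tested.

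In vivo, where numbers do not pair the libraries, the replicate block changed no count of members by over 1.5 times. Over all genes, calls with TTX numbered 88 as reported, 172 with the block, 281 with the block and those 6 libraries alone, 187 with DESeq2, 365 without the filter, 27 at the adjusted p limit and 12 with the library titled DIV0 in that group. From DIV0 to DIV7 they numbered 1440 as reported, 2784 at the adjusted limit, 2657 without the filter and 168 with that library in DIV0. From DIV7 to DIV28 the same settings gave 993, 2031, 2232 and 118, with 1627 for DESeq2 and 1519 for the block, and from DIV0 to DIV28 2447, 4279, 4180 and 14. In vivo, calls went from 1097 to 1659 at the adjusted limit and 1701 without the filter from P13 to P21, from 26 to 8 and 115 from P21 to P56, and from 103 to 60 and 281 from P56 to 2 years. A fit of the compared ages alone gave 191 at that last step and 3717 in place of 6621 from E10.5 to E13.5. From P56 to 2 years 72.8% of the calls were higher, and 55.5% with DESeq2. Median-of-ratios scaling shifted the median of all genes by 0.11 from E10.5 to E13.5 and by -0.11 from E13.5 to P4, and turned the direction of no called member. Depth limits what can be said of Grin2c and Grin3b, which rest on 26 counts or fewer per group at E13.5 to P4 and after DIV0 in culture. Leaving out each DIV28 library in turn for the folds of Grin3b against the floor, an alternative chosen after seeing the data, gave 2.54 to 7.18-fold against TTX and 1.06 to 2.99-fold against DIV0.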
